A study of Arabidopsis thaliana with 6 samples.

Results

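The genes described here are the nuclear genes of the photosynthetic machinery in *Arabidopsis* stems, 38 of the 33690 features in the expression table, picked by gene identifier from a fixed list. They comprise 4 genes of the light-harvesting complex (LHC) of photosystem I, 14 of the LHC of photosystem II, 4 genes of the Rubisco small subunit, 6 photosystem II subunits, 8 photosystem I subunits and 2 plastocyanin genes. The list is of gene functions and has no threshold on measured values. All 38 passed the low-value limit of at least 1 FPKM (fragments per kilobase of transcript, scaled to a fixed number of mapped reads) in at least 3 libraries, as did 17906 features in all.

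The study asked which genes depend on HDT1, a plant-specific histone deacetylase of the HD2 family, while the vascular tissue of the stem develops. RNA was sequenced from *hdt1* T-DNA insertion mutants (3 libraries) and from wild-type plants of accession Columbia (3 libraries). Stems had been harvested 35 days after flowering, stripped of leaves and flowers, at a stage when siliques are formed and stems turn yellow. The study used 2 insertion lines, and its text does not say which of them was sequenced. The table heads its columns WT and H1 with the numbers 1, 2 and 4, and H1 was read here as *hdt1*. What a number marks is not given. The sample titles number 3 replicates per genotype and the paper speaks of triplicates, whereas the deposited design text says that there were none and no source says whether plants were grown separately, so the p-values below reflect no more than how far these libraries differ among themselves, which may be technical variation.

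In chloroplasts, light-harvesting proteins bind chlorophyll and pass excitation to the reaction centres of photosystems I and II, plastocyanin carries electrons between the cytochrome complex and photosystem I, and Rubisco fixes carbon dioxide. The reaction centre cores and the Rubisco large subunit are encoded in the plastid, whereas the antenna, the small subunit and many peripheral subunits are encoded in the nucleus and imported. In the stem these genes serve the green cortex, and their transcripts are known to decline as green tissue ages. In RNA from whole stems, fewer green cells and less RNA per green cell cannot be told apart.

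HDT1 itself (AT3G44750) had 4.97, 19.8 and 20.5 FPKM in *hdt1* libraries 1, 2 and 4, against 53.3, 65.3 and 56.9 FPKM in wild-type libraries 1, 2 and 4, so each mutant library lay below each wild-type library. Depth was similar throughout, and the FPKM steps imply totals of 42458551 to 45230842 mapped reads in *hdt1* and 40505052 to 43363983 in wild type. Library 1 stood apart in each genotype. Over all tested genes the *hdt1* and wild-type libraries 1 correlated at 0.977, libraries 2 and 4 at 0.995 within either genotype, and every other pair at 0.853 to 0.906. Results are therefore given over all libraries, within library 1, and within libraries 2 and 4. Among marker lists, the summed FPKM of 4 seed genes was 3.03 to 5.01 in *hdt1* and 2.21 to 163 in wild type, where only libraries 2 and 4 were high and CRA1, SESA4 and OLEO1 were listed at 0 in library 1. The summed FPKM of 5 xylem and fibre genes was 29.7 to 59.0 in *hdt1* and 10.6 to 33.3 in wild type, and that of 4 phloem genes 173 to 187 in *hdt1* and 101 to 135 in wild type. Most of the phloem sum was SUC2, at 147 to 155 FPKM in *hdt1* and 90.9 to 110 FPKM in wild type. For 4 epidermis genes the sums were 52.1 to 97.8 in *hdt1* and 72.9 to 84.7 in wild type, and for 4 guard cell genes 19.8 to 58.1 and 29.4 to 53.2. The sums for 5 flower and pollen genes were 2.82 to 8.77 and 3.14 to 38.02, with A9 at 0 in each library. The high wild-type sums came from 1 gene, AT3G28750, with 2.40, 36.9 and 36.1 FPKM in wild-type libraries 1, 2 and 4. For 4 root genes the sums were 0.466 to 2.12 in *hdt1* and 0.335 to 0.898 in wild type, with LRX1 at 0 in each library. The part of these tissues in the values below was not tested.

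Several members are copies of 1 gene family whose log2 fold changes between the genotypes differed in direction. None of these copies was called in the main fit described below, so a real divergence is not shown. The 200 bases before their annotated starts are given below. The annotated starts need not lie at matching points of the copies, so unlike stretches are not by themselves unlike DNA. The stretches below are from the RefSeq genome TAIR10.1, read 5′ to 3′ on the strand of the gene and ending at the base before the annotated start. Capitals mark the motifs searched on both strands, which were the G-box CACGTG, the I-box GATAAG, the GATA-type GATAA contained in the I-box, the GLK-type AGATTCT, the evening element AAATATCT, the CCA1-type AAAAATCT and CCAAT. The Rubisco genes RBCS1B, RBCS2B and RBCS3B are shown because their coding sequences are 96.7% to 97.3% identical while their values differed in direction. The LHCB2 genes are shown because LHCB2.1 and LHCB2.2, near-identical in coding sequence, had negative log2 fold changes and the more distant LHCB2.3 a positive value. In library 1, however, LHCB2.1 was higher in *hdt1*. PSBQ2 is shown because it was called in a further fit with library 1 as a term, though not in the main fit.
RBCS1B, chr5:15385321-15385520, minus strand: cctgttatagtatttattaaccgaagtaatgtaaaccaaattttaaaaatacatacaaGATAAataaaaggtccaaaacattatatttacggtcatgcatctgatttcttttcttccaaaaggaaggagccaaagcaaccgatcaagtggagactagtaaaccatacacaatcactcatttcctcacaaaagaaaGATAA
RBCS2B, chr5:15382072-15382271, minus strand: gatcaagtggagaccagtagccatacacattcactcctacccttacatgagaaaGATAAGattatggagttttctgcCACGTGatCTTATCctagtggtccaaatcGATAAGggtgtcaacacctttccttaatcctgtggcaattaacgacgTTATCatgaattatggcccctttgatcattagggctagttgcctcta
RBCS3B, chr5:15378643-15378842, minus strand: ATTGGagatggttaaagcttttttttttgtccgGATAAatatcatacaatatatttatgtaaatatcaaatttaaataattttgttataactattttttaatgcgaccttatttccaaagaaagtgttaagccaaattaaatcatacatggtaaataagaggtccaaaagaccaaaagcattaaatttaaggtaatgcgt
LHCB2.1, chr2:1824481-1824680, minus strand: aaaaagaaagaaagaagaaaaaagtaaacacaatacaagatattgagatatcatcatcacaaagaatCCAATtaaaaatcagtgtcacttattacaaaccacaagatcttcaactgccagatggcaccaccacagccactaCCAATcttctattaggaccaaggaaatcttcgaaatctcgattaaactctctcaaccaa
LHCB2.2, chr2:1800473-1800672, minus strand: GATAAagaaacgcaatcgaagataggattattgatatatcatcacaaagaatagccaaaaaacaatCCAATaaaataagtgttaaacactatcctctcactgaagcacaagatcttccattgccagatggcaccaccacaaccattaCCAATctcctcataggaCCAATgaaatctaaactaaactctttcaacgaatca
LHCB2.3, chr3:10255706-10255905, plus strand: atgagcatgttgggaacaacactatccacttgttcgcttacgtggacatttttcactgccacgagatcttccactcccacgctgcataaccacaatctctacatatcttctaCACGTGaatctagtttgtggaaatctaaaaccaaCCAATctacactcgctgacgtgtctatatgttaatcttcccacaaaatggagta
PSBQ2, chr4:2673244-2673443, minus strand: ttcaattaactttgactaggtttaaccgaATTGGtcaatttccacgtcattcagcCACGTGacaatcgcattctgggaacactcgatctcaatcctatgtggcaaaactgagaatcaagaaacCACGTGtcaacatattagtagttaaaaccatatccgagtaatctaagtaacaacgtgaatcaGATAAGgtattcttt
The printed RBCS2B stretch holds 1 G-box and 3 I-boxes, and neither motif occurs in the printed stretches of RBCS1B and RBCS3B, although the wider window used for the counts below holds 2 I-boxes for RBCS1B. The longest run of bases shared by the RBCS1B and RBCS2B stretches was 14, by RBCS1B and RBCS3B 10, and by RBCS2B and RBCS3B 8. The run of 14 opens the RBCS2B stretch but lies in the later part of the RBCS1B stretch. The stretches of these 2 genes are thus offset, and neither the motif contrast nor the run lengths compare matching bases. The contrast does not show that RBCS1B lacks a motif that RBCS2B has. LHCB2.1 and LHCB2.2 shared a run of 20 bases, whereas LHCB2.3 shared 8 with LHCB2.1 and 10 with LHCB2.2. Among 678 pairs of members from different families the median longest run was 8 and the longest 12. The LHCB2.3 stretch holds 1 G-box and that of PSBQ2 holds 2, with an I-box near its start.

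Over all 38 members, in windows from 250 bases before to 50 bases after the start, the G-box was present in 10 members (26.3%, against 7.79% of 26711 promoters), the I-box in 17 (44.7%, against 14.6%) and the GATA-type sequence in 34 (89.5%, against 60.9%). CCAAT was found in 30 members (78.9%, against 51.7%), the GLK-type sequence in 7 (18.4%, against 7.55%) and the CCA1-type sequence in 5 (13.2%, against 7.96%). The evening element was in no member window and in 5.72% of all windows. These are matches of letters and not binding sites, and no test was run on them.

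Most of the 38 genes were strongly expressed. By mean FPKM over the libraries, however, LHCB1.4, LHCB4.3 and LHCB2.3 ranked only 6326, 7514 and 8361 among all features. The summed level of the 38 genes was 31244, 17799 and 16883 FPKM in *hdt1* libraries 1, 2 and 4, against 35383, 22816 and 24520 FPKM in wild-type libraries 1, 2 and 4. The sum was thus lower in *hdt1* at each number, while library 1 of *hdt1* exceeded wild-type libraries 2 and 4. As a share of all FPKM the members took 4.03%, 2.44% and 2.28% in *hdt1* and 4.38%, 3.13% and 3.40% in wild type. The mean sum of *hdt1* was 79.7% of that of wild type, or 88.3% for library 1 and 73.3% for libraries 2 and 4, and the genotypes did not separate (exact permutation p = 0.5, two-sided, where 3 against 3 libraries can reach no less than 0.1). Of the 100 genes with the highest FPKM in a library, 6 to 17 were members in *hdt1* and 10 to 19 in wild type.

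**Figure D1:**
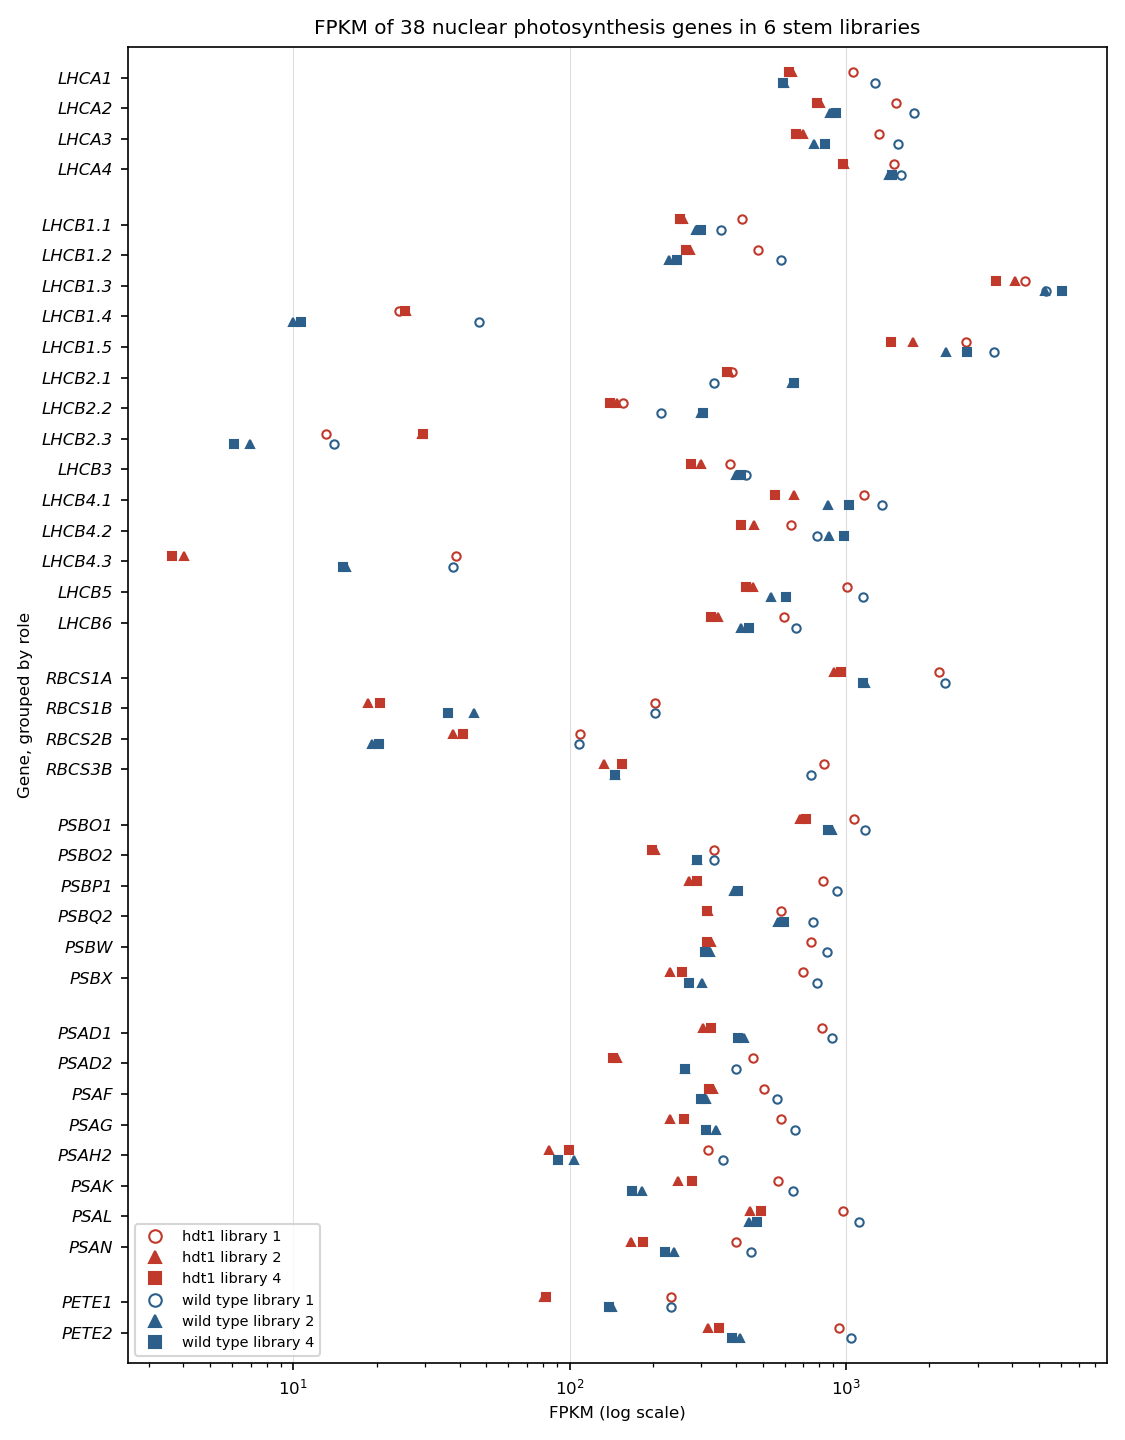
FPKM on a log scale (horizontal) of each of the 38 genes (vertical, grouped by role), with *hdt1* in red above wild type in blue and open circles, triangles and squares for libraries 1, 2 and 4. For most genes the open circle of library 1 lies to the right in each genotype, and LHCB1.3 has the highest level at 3489 to 4452 FPKM in *hdt1* and 5240 to 6085 FPKM in wild type.

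No member was called between the genotypes. In the limma fit of log2(FPKM + 1) on all 6 libraries, 0 of 38 members had an adjusted p under 0.05, and neither had any of the 17906 genes tested (0%). HDT1 itself, though lower in each mutant library, was not called either (log2 fold change -2.10, adjusted p = 0.269). The absence of calls therefore does not show that levels were unchanged. The adjusted p of the members lay between 0.253 and 0.999, and their standard errors between 0.19 and 1.09 on the log2 scale. At an unadjusted p under 0.05 there was 1 member higher in *hdt1* (LHCB2.3) and there were 2 lower (LHCB2.2 and LHCB4.2), where 1393 of all genes (7.78%) passed as higher and 1068 (5.96%) as lower, larger shares than among the members. The voom fit on recovered reads also called 0 members and 0 genes. Of the members, 32 had a negative and 6 a positive log2 fold change, with a median of -0.30, beside -0.08 over all genes tested, of which 58.6% were negative. Median-ratio scaling between the libraries gave 27 negative and 11 positive values. The tally and its sign depended on library 1, since leaving it out of wild type alone gave 15 negative and 23 positive values (median 0.037), leaving it out of *hdt1* alone 35 and 3 (median -0.63), and leaving it out of both 29 and 9 (median -0.36). Leaving out another single library gave 24 to 35 negative values, with medians of -0.43 to -0.09.

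Within library 1, 31 of 38 members were lower in *hdt1*, beside 54.4% of all genes, and the median difference there was -0.17 on the log2(FPKM + 1) scale, beside -0.03 over all genes. In libraries 2 and 4, 27 members were lower in both *hdt1* libraries than in both wild-type libraries, as were 48.9% of all genes, and 7 members were higher in both, as were 34.3%. The median difference there was -0.36, beside -0.11 over all genes. The difference had a negative sign in library 1 and in libraries 2 and 4 for 23 members, beside 34.2% of all genes, and a positive sign in each for 1 member, RBCS2B. Over all 6 libraries 4 members lay below wild type without overlap, namely LHCB1.3, LHCB2.2, LHCB3 and LHCB4.2, and 0 lay above, where 10.9% of all genes lay below and 8.5% above. All 4 encode antenna proteins of photosystem II, and their number is close to the background share.

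**Figure D2:**
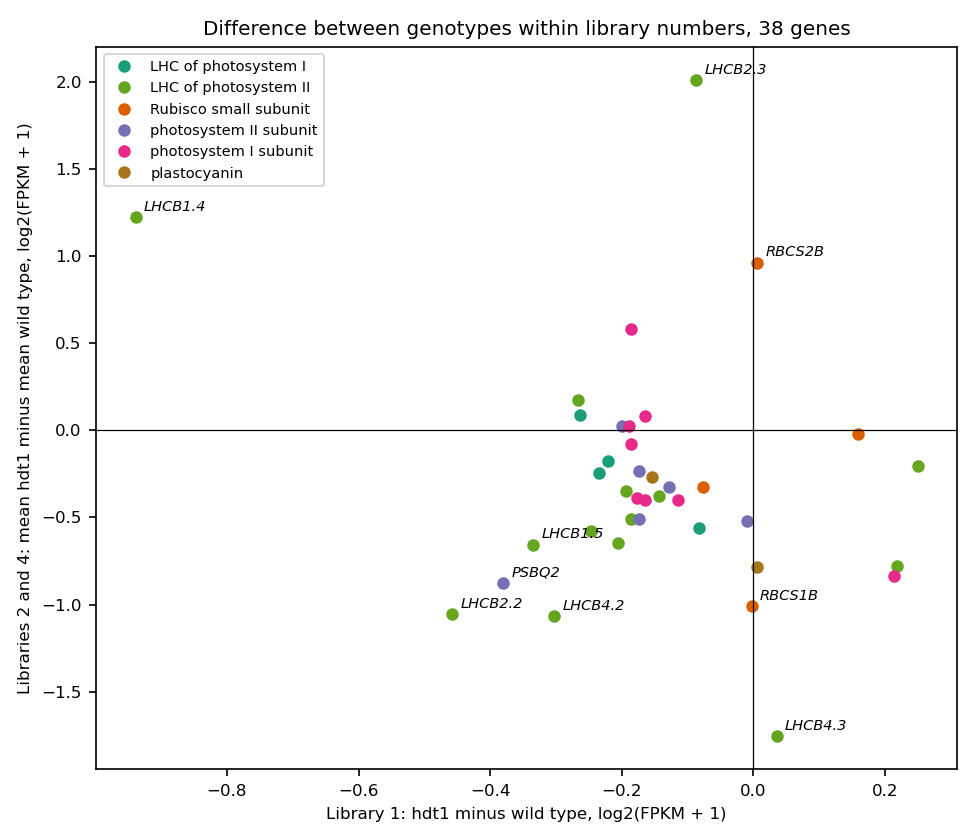
Each point is 1 of 38 genes, with the difference of *hdt1* minus wild type in log2(FPKM + 1) within library 1 (horizontal) and between the means of libraries 2 and 4 (vertical), coloured by role. Most points lie at small negative values on the horizontal axis and spread from -1.76 to 2.01 on the vertical axis, with LHCB2.3, LHCB1.4 and RBCS2B far above 0 and LHCB4.3 lowest.

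When the split of library 1 from libraries 2 and 4 was added to the fit as a term, 2 members fell in *hdt1* and 0 rose, while 2.52% of all genes fell and 3.82% rose. The 2 were LHCB2.2 (adjusted p = 0.041) and PSBQ2 (adjusted p = 0.046). With the replicate block, which pairs the libraries by number, neither was called (adjusted p = 0.160 for each in limma). The calls depended on the libraries used, because leaving out any of the libraries 2 and 4 gave 0 members, and leaving out either library 1 gave 32 members. In the fits without a library 1, as with libraries 2 and 4 alone (27 members lower and 5 higher), the spread comes only from 2 libraries per genotype that were nearly alike. In that pair of libraries 38.6% of all genes were called lower in *hdt1* and 27.4% higher.

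The outer antenna of photosystem II is built from trimers of LHCB1, LHCB2 and LHCB3 proteins. LHCB1.3 (AT1G29930, chr1:10477885-10479114 in TAIR10.1, a gene of 1 exon) had the highest level of all members and the third highest mean of all features. It had 4452, 4103 and 3489 FPKM in *hdt1* libraries 1, 2 and 4, against 5283, 5240 and 6085 FPKM in wild-type libraries 1, 2 and 4. Each *hdt1* library was below each wild-type library, with a log2 fold change of -0.47 ± 0.26 (SE, n = 3 each), an adjusted p of 0.464 in limma and an exact permutation p of 0.1, the smallest possible. LHCB1.5 (AT2G34420), the next in level, had 2720, 1752 and 1462 FPKM in *hdt1*, against 3431, 2313 and 2751 FPKM in wild type. Its groups overlapped, with *hdt1* lower at each number. On the opposite strand an annotated non-coding RNA, AT2G08665, covers all 1045 bases of LHCB1.5 and a protein-coding gene, AT2G34410, overlaps it by 99 bases. Since the strand setting of the counting is not given, reads of these genes cannot be told apart there.

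The remaining LHCB1 copies ran at lower levels and without a common direction. LHCB1.1 (AT1G29920) had 422, 258 and 250 FPKM in *hdt1*, against 355, 287 and 300 FPKM in wild type, higher in *hdt1* in library 1 and lower in libraries 2 and 4. LHCB1.2 (AT1G29910) had 482, 272 and 264 FPKM in *hdt1*, against 580, 229 and 246 FPKM in wild type, the reverse pattern. LHCB1.4 (AT2G34430) was nearly constant in *hdt1*, at 24.1, 25.5 and 25.4 FPKM, against 47.2, 9.95 and 10.7 FPKM in wild type. It was thus lower in *hdt1* in library 1 (51.1% of wild type) and higher in libraries 2 and 4 (247% of wild type). LHCB1.1, LHCB1.2 and LHCB1.3 lie side by side on chromosome 1, and their coding sequences are 95.6% to 96.4% identical, whereas LHCB1.4 and LHCB1.5 share 91.4%. Reads common to such copies may have been split or dropped in counting, so the level of a single copy is uncertain. The summed FPKM of the 5 genes was 8100, 6411 and 5491 in *hdt1*, against 9696, 8079 and 9392 in wild type, and the share of LHCB1.3 in this sum was 55.0%, 64.0% and 63.5%, against 54.5%, 64.9% and 64.8%.

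The LHCB2 genes gave the smallest p-values in both directions. LHCB2.2 (AT2G05070, chr2:1799234-1800472) had 156, 149 and 140 FPKM in *hdt1*, against 215, 299 and 304 FPKM in wild type. The groups did not overlap, with a log2 fold change of -0.86 ± 0.20 (SE, n = 3 each), an adjusted p of 0.253 in limma, 0.041 with the library split as a term, and an exact permutation p of 0.1. Its near copy LHCB2.1 (AT2G05100, 96.6% identical in coding sequence), named after its values were seen, had 389, 379 and 371 FPKM in *hdt1*, against 334, 640 and 647 FPKM in wild type. In *hdt1* LHCB2.1 was as flat as LHCB2.2, and wild-type library 1 was the lowest of the 6. LHCB2.3 (AT3G27690, chr3:10255906-10257489) had 13.1, 29.1 and 29.4 FPKM in *hdt1*, against 13.99, 6.95 and 6.08 FPKM in wild type. It was about equal in library 1 and 449% of wild type in libraries 2 and 4, with a log2 fold change of 1.31 ± 0.42 (SE, n = 3 each) and an adjusted p of 0.305 in limma. In RefSeq LHCB2.3 overlaps a gene on the opposite strand, AT3G27700, by 595 bases, and its coding sequence is 84.4% to 85.5% identical to the other LHCB2 genes. The FPKM steps imply a counted length of 946 bases for LHCB2.3, against 1465 exon bases in RefSeq. Whether the overlap lies within the counted bases is therefore not known. Its share of the summed LHCB2 level was 2.35%, 5.23% and 5.44% in *hdt1*, against 2.49%, 0.735% and 0.635% in wild type, so the family sum (558, 557 and 541 FPKM against 563, 946 and 957 FPKM) followed LHCB2.1 and LHCB2.2.

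**Figure D3:**
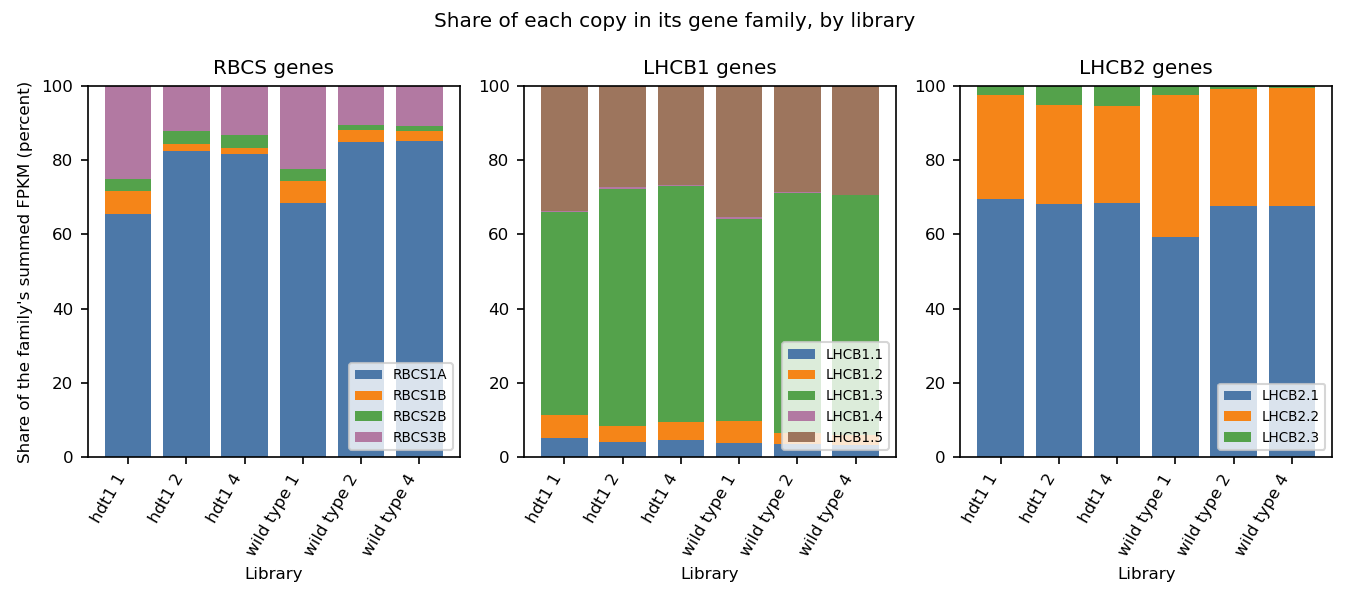
Share in percent of each gene copy in the summed FPKM of its family (vertical) in each library (horizontal, 3 *hdt1* libraries left of 3 wild-type libraries), for the RBCS, LHCB1 and LHCB2 families. RBCS1A makes up 65.5% to 82.6% of the RBCS sum in *hdt1* and 68.4% to 85.1% in wild type, and is lowest in library 1 of each genotype.

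Among the minor antenna proteins, which link the trimers to the photosystem II core, LHCB4.2 separated the genotypes in each library and LHCB4.3 did not. LHCB4.2 (AT3G08940, chr3:2717557-2718923) had 636, 463 and 417 FPKM in *hdt1*, against 784, 867 and 982 FPKM in wild type. All *hdt1* libraries were below all wild-type libraries, with a log2 fold change of -0.81 ± 0.24 (SE, n = 3 each), an adjusted p of 0.293 in limma and 0.057 with the library split as a term. LHCB4.3 (AT2G40100), also known as LHCB8, had 38.7, 4.03 and 3.64 FPKM in *hdt1*, against 37.8, 15.5 and 15.2 FPKM in wild type. Library 1 gave the same level in each genotype, and in libraries 2 and 4 *hdt1* stood at 25.0% of wild type, the lowest such value of all members. Its log2 fold change of -1.16 was the lowest of the members, but its standard error was 0.88 and its adjusted p 0.575 in limma. The other antenna genes of photosystem II (LHCB3, LHCB4.1, LHCB5 and LHCB6) had negative values, between -0.50 and -0.30. Of the 14 genes, 11 had negative and 3 positive log2 fold changes, with a median of -0.42.

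The antenna of photosystem I is made of LHCA1 to LHCA4, which bind to 1 side of the core as dimers. LHCA4 (AT3G47470) had the highest mean of the 4 and the lowest log2 fold change, with 1491, 981 and 978 FPKM in *hdt1*, against 1579, 1430 and 1465 FPKM in wild type. In wild type it hardly differed between libraries, and only *hdt1* library 1 reached the wild-type range. The log2 fold change was -0.40 ± 0.25 (SE, n = 3 each) with an adjusted p of 0.504 in limma. LHCA1 (AT3G54890), its partner in the dimer, had 1062, 639 and 624 FPKM in *hdt1*, against 1275, 599 and 592 FPKM in wild type, lower in library 1 and slightly higher in libraries 2 and 4. The log2 fold changes of LHCA2 and LHCA3 were -0.19 and -0.24.

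The 4 Rubisco small subunit genes differed more between libraries than between genotypes. RBCS1A (AT1G67090, chr1:25048158-25049667) carried most of the signal, with 2172, 903 and 959 FPKM in *hdt1*, against 2290, 1177 and 1158 FPKM in wild type, lower in *hdt1* at each number. RBCS3B (AT5G38410) had 832, 134 and 155 FPKM in *hdt1*, against 745, 146 and 146 FPKM in wild type, and its groups overlapped throughout. RBCS1B (AT5G38430) had 204, 18.6 and 20.6 FPKM in *hdt1*, against 204, 45.2 and 36.2 FPKM in wild type. RBCS2B (AT5G38420) had 109, 37.98 and 41.2 FPKM in *hdt1*, against 108, 19.2 and 20.4 FPKM in wild type. Library 1 was therefore equal between the genotypes for RBCS1B and RBCS2B, while in libraries 2 and 4 *hdt1* stood at 48.2% of wild type for RBCS1B and at 200% for RBCS2B. The log2 fold changes were -0.67 ± 1.09 for RBCS1B and 0.64 ± 0.75 for RBCS2B (SE, n = 3 each), with adjusted p of 0.803 and 0.718 in limma. RBCS1B, RBCS2B and RBCS3B form a cluster on chromosome 5, and RBCS1B and RBCS3B share an identical run of 233 coding bases, so the levels of these single copies are uncertain wherever shared reads were split or dropped. The sum of the 4 genes was 3317, 1093 and 1177 FPKM in *hdt1*, against 3348, 1388 and 1361 FPKM in wild type.

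Among photosystem II subunits, PSBO1, PSBO2, PSBP1 and PSBQ2 belong to the oxygen-evolving complex on the lumen side. PSBO1 (AT5G66570), the manganese-stabilising protein with the highest mean of the group, had 1070, 682 and 718 FPKM in *hdt1*, against 1170, 893 and 863 FPKM in wild type, lower in *hdt1* at each number. PSBQ2 (AT4G05180, chr4:2671523-2673243) had 583, 318 and 316 FPKM in *hdt1*, against 759, 568 and 596 FPKM in wild type. Only *hdt1* library 1 entered the lower end of the wild-type range, and *hdt1* stood at 76.8% of wild type in library 1 and 54.4% in libraries 2 and 4. The log2 fold change of PSBQ2 was -0.71 ± 0.30 (SE, n = 3 each), with an adjusted p of 0.373 in limma and 0.046 with the library split as a term. The other subunits PSBO2, PSBP1 and PSBX had log2 fold changes of -0.40 to -0.21. PSBW (AT2G30570), a small membrane subunit, had the highest log2 fold change of the group, -0.05, with 746, 326 and 314 FPKM in *hdt1*, against 856, 321 and 308 FPKM in wild type. For all 6 genes the log2 fold change was negative, with a median of -0.31, except that PSBW turned to 0.016 with median-ratio scaling.

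The 8 photosystem I subunits ranged from stromal ferredoxin-docking proteins (PSAD1, PSAD2) to membrane proteins at the antenna side (PSAG, PSAK) and at the LHC of photosystem II docking site (PSAH2, PSAL). PSAL (AT4G12800), the highest of them, had 976, 450 and 491 FPKM in *hdt1*, against 1113, 447 and 477 FPKM in wild type, with a log2 fold change of -0.05. PSAK (AT1G30380) had 568, 248 and 278 FPKM in *hdt1*, against 646, 182 and 168 FPKM in wild type, lower in library 1 and 150% of wild type in libraries 2 and 4. PSAD2 (AT1G03130) had 463, 149 and 144 FPKM in *hdt1*, against 399, 261 and 262 FPKM in wild type, higher in library 1 and 55.9% of wild type in libraries 2 and 4. Their log2 fold changes, 0.33 for PSAK and -0.49 for PSAD2, were the highest and the lowest of the group, with adjusted p of 0.830 and 0.674 in limma. The paralogue PSAD1 was lower in *hdt1* at each number, and its share of the PSAD sum was 63.9%, 67.1% and 69.4% in *hdt1*, against 69.0%, 62.0% and 60.8% in wild type. Of the other subunits, PSAF, PSAG, PSAH2 and PSAN had log2 fold changes from -0.32 (PSAG and PSAN) to -0.00071 (PSAF). PSAF, with 504, 329 and 319 FPKM in *hdt1*, against 565, 313 and 299 FPKM in wild type, was lower in library 1 and higher in libraries 2 and 4, and was named after its values were seen. PSAG overlaps an annotated gene on the opposite strand by 479 bases.

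Of the plastocyanin genes, PETE2 (AT1G20340) was the more abundant, with 941, 316 and 347 FPKM in *hdt1*, against 1047, 413 and 386 FPKM in wild type. PETE1 (AT1G76100) had 233, 80.9 and 81.9 FPKM in *hdt1*, against 232, 143 and 138 FPKM in wild type. PETE1 was equal in library 1 and at 57.9% of wild type in libraries 2 and 4, while PETE2 was at 89.9% and 82.9%. The log2 fold changes were -0.52 ± 0.47 for PETE1 and -0.23 ± 0.57 for PETE2 (SE, n = 3 each), with adjusted p of 0.631 and 0.876 in limma.

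Most members varied more with the library number than with the genotype. Exceptions included LHCB1.3, LHCB2.2 and LHCB4.2, for which each *hdt1* library lay below each wild-type library. Library 1 exceeded the mean of libraries 2 and 4 for 36 of 38 members in *hdt1*, by a median of 1.94-fold, and for 34 of 38 in wild type, by a median of 1.97-fold. Over all genes tested the median was 1.102-fold in *hdt1* and 1.078-fold in wild type. That median was converted from differences of log2(FPKM + 1), which understate the fold of low genes. The member ratios are of FPKM itself, so the measures are not strictly alike. The Rubisco small subunit genes had the highest median ratios of the role groups, 4.25-fold in *hdt1* and 5.05-fold in wild type, and the LHC of photosystem II the lowest, 1.55-fold and 1.39-fold. The ratio reached 10.4-fold for RBCS1B and 10.1-fold for LHCB4.3 in *hdt1*, and 5.47-fold for RBCS2B in wild type. LHCB2.3 (0.448-fold in *hdt1* and 2.15-fold in wild type) and LHCB1.4 (0.948-fold and 4.57-fold) went opposite ways in the genotypes, as did LHCB2.1 (1.04-fold and 0.519-fold), LHCB2.2 (1.08-fold and 0.713-fold), LHCB4.2 (1.44-fold and 0.849-fold) and LHCB1.3 (1.17-fold and 0.933-fold). Across the 38 genes the log2 ratios of the genotypes had a Pearson r of 0.55 and a Spearman rho of 0.64. Genes are not independent replicates, and these ratios share their libraries, so no p is given.

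**Figure D4:**
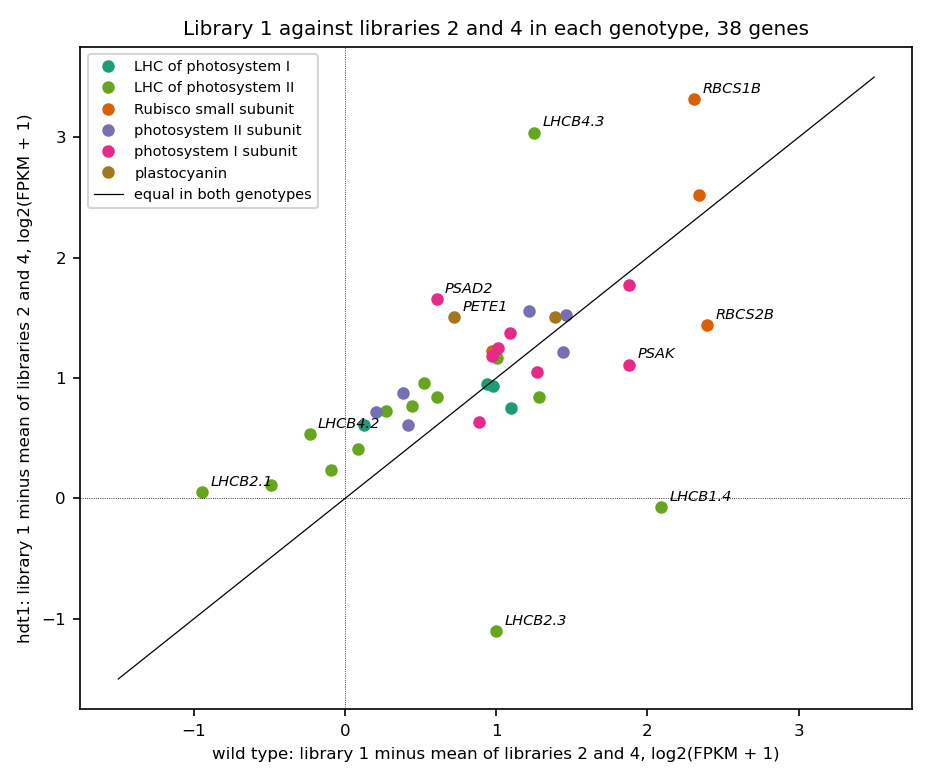
Each point is 1 of 38 genes, with library 1 minus the mean of libraries 2 and 4 in log2(FPKM + 1) for wild type (horizontal) and *hdt1* (vertical), coloured by role, and the line marks equal values. Most points lie right of and above 0, and LHCB4.3 (3.04 in *hdt1*, 1.25 in wild type) and LHCB2.3 (-1.10 and 0.999) lie far from the line.

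Other genes of the same pathways were taken from fixed lists, and their signs are to be read beside the 58.6% of all genes with a negative value. Of 21 further light reaction genes, 20 had negative log2 fold changes, with a median of -0.32, and 0 were called. PSBR, a photosystem II subunit and the most abundant of them, had 4181, 1860 and 1940 FPKM in *hdt1*, against 5460, 2419 and 2367 FPKM in wild type. FD1, a leaf ferredoxin, was the only gene of the list called with the library split as a term (log2 fold change -0.69, adjusted p = 0.046). All 12 Calvin cycle genes had negative values over all libraries, with a median of -0.49 (11 of 12 with median-ratio scaling). Within library 1 their median was only -0.05, against -0.74 in libraries 2 and 4. Of the 12, 3 (FBA1, CFBP1 and RPE) passed an unadjusted p of 0.05 in limma as lower, as did 5.96% of all genes. CFBP1, the plastid fructose-bisphosphatase, was lowest with a log2 fold change of -0.89 ± 0.30 (SE, n = 3 each) and an adjusted p of 0.315 in limma. RCA, Rubisco activase, had 1052, 533 and 509 FPKM in *hdt1*, against 975, 845 and 892 FPKM in wild type, higher in library 1 and lower in libraries 2 and 4.

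Chlorophyll synthesis gave 12 negative values of 13 (median -0.35), where the median was 0.05 for library 1 and -0.62 for libraries 2 and 4. Chlorophyll breakdown gave 5 negative values of 6 (median -0.32), led by NYC1, a chlorophyll b reductase, at -0.76. The median of that list was -0.12 for library 1 and -0.45 for libraries 2 and 4. Of 9 regulators of photosynthesis genes 8 were tested, 7 with negative values and a median of -0.33. The median of these regulators was 0.11 for library 1 and -0.64 for libraries 2 and 4. GLK2, a transcription factor that activates chloroplast genes, had 104, 56.6 and 53.0 FPKM in *hdt1*, against 51.0, 107 and 115 FPKM in wild type, higher in library 1 and lower in libraries 2 and 4. Its paralogue GLK1, named after its values were seen, had 29.4, 52.9 and 50.4 FPKM in *hdt1*, against 25.2, 36.8 and 39.9 FPKM in wild type, higher at each number. Plastid-encoded partners were strongly set by the library. The plastid gene psbA, which encodes the D1 core protein of photosystem II, had 831, 12.2 and 17.5 FPKM in *hdt1*, against 491, 9.14 and 6.79 FPKM in wild type. All 5 plastid genes tested had positive log2 fold changes (4 of 5 with quantile normalization), with a median of 0.49, and 0 of them were called.

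**Figure D5:**
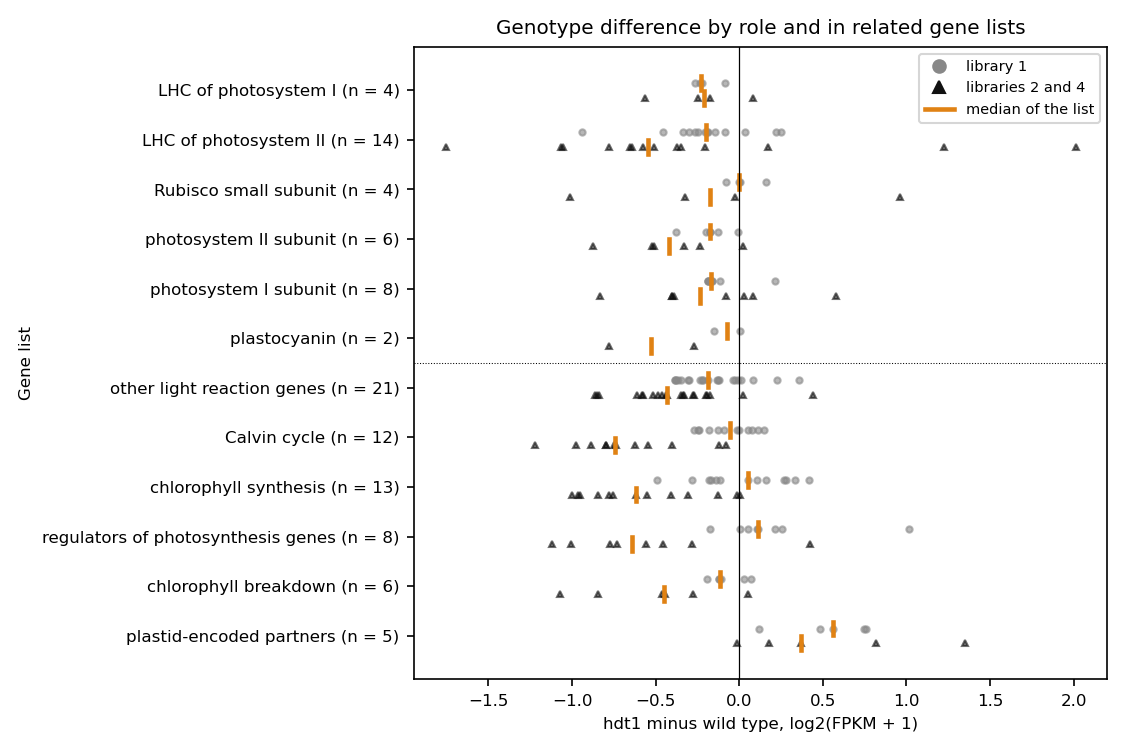
Difference of *hdt1* minus wild type in log2(FPKM + 1) (horizontal) for each gene of the 6 role groups and of 6 related lists (vertical), in library 1 (grey circles) and libraries 2 and 4 (black triangles), with orange bars for medians. Nuclear lists have lower medians in libraries 2 and 4 than in library 1 except the LHC of photosystem I (-0.21 and -0.23), and plastid-encoded genes lie mostly above 0.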

How the data were processed

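RNA-seq libraries of *hdt1* and wild-type stems (3 each) were compared. The authors deposited FPKM values per gene, and HTSeq 0.6.1, TopHat2 2.0.12 and Bowtie2 2.2.3 are listed, without roles, in the submitters' processing notes. The paper writes RPKM for its unit. Which build the reads were mapped to, and with which strand setting they were counted, is stated in no source used here. Features reaching 1 FPKM in 3 or more libraries were fitted on log2(FPKM + 1) with limma 3.58.1 (R 4.3.3, empirical Bayes with trend) and adjusted by Benjamini-Hochberg over 17906 genes, with a call at 0.05. A fold change on this scale understates that of low genes. The library split in the further fit was chosen because library 1 stands apart in the data. Whole reads were recovered from the FPKM steps for 25373 of 25374 features above 0 and used with voom, and the members had 154 to 257321 reads per library. Single values and sums were compared by exact permutation (SciPy 1.17.1).

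Samples were grouped by genotype. Libraries of the same number deviated together (correlations of 0.56, 0.53 and 0.46 for numbers 1, 2 and 4), which passes the limit set for pairing. Libraries 2 and 4 correlated no less across numbers (0.51 and 0.54), so these values show library 1 apart but not a pairing within numbers 2 and 4. In simulated data with 17906 genes and a split of library 1 shared by the genotypes, the main fit of this comparison recovered 16% of genes changed 2-fold and 73% of those changed 4-fold, and the fit with the library split 100% of each, with 0 and 10 false calls. The simulated split has the form that the further fit assumes, so its recovery does not carry over to a split that differs between genotypes. In the measured data, the standard errors of the members in the further fit ran from 0.093 (LHCA2) to 0.444 (LHCB1.4). LHCB2.3 (log2 fold change 1.31, adjusted p = 0.097 in limma) and LHCB4.3 (-1.16, adjusted p = 0.092) exceeded 2-fold there without a call. Whether the recovery of 100% holds for the measured values was not tested.

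The members and lists were chosen with earlier results of these data known. Values per library are given for the most abundant member of each role, those with the highest and lowest log2 fold change of each role, the 3 of smallest p per direction and the RBCS and LHCB1 copies. Sequences, positions and overlaps are from RefSeq TAIR10.1, matched by identifier for 38 of 38 members. Alternatives were a pseudocount of 0.1, no filter, a mean of at least 5 FPKM, other scalings, a replicate block, voom and left-out libraries.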

Additional observations from a re-analysis of the deposited data

How the results depend on the processing

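No limma fit on all 6 libraries without a term for the library split called a member or any gene, whatever the pseudocount, filter or scaling, nor did voom. With the replicate block, which pairs libraries by number, 0 genes and 0 members were called (2225 genes higher and 2251 lower at an unadjusted p under 0.05), and the median log2 fold change stayed at -0.30. The block thus left the calls of the fit without it as they were, and the 2 members called with the library split were not called with the block. With the library split as a term 1135 genes and 2 members were called, with voom and that term 1753 and 3, and with libraries 2 and 4 alone 11809 and 32. Leaving out 1 library gave 0 to 1994 genes and 0 to 4 members called, and 0 to 32 members with the split as a term. The median log2 fold change of the members ranged from -0.63 (without *hdt1* library 1) to 0.037 (without wild-type library 1), but was -0.36 with library 1 left out of both genotypes, so the sign turned only where library 1 was kept in *hdt1* and not in wild type. Their summed FPKM in *hdt1* ranged from 62.9% to 92.8% of wild type.

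Of the 23 members named by rule, 13 kept their sign in each alternative. Median-ratio scaling turned LHCA1 (0.035), LHCB1.1 (0.011), PSBW (0.016) and PSAL (0.020), quantile normalization turned RBCS3B (-0.0035), and libraries 2 and 4 alone turned LHCA1 (0.085), RBCS3B (-0.023), PSBW (0.025) and PSAL (0.027). With 1 library left out, the log2 fold change of 10 members changed sign at least once. LHCA1 gave -0.28 to 0.33, LHCB1.1 gave -0.30 to 0.079, LHCB1.2 gave -0.25 to 0.46, RBCS1A gave -0.65 to 0.081, RBCS1B gave -1.78 to 0.10, RBCS3B gave -0.80 to 0.82, PSBW gave -0.46 to 0.43, PSAK gave -0.045 to 0.95, PSAL gave -0.40 to 0.38 and PETE2 gave -0.73 to 0.23. The main fit on 3 libraries per genotype, with library 1 apart in each, limits what can be called.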
